A study of Mus musculus with 15 samples.

Results

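Chromatin that was accessible in reprogrammed hepatocytes and biliary cells of injured mouse livers, and far less so in uninjured biliary cells or in the hepatocytes of the same injury, comprised 1344 of 93215 nuclear regions (1.44%). The assay was ATAC-seq, in which a transposase cuts and tags open DNA, and the unit is nuclear RPM, a region's reads scaled so that all regions outside the mitochondrial genome total 1000000. Regions were chosen by group means of nuclear RPM: one was taken where the means of DDC-Rep and of DDC-Bil each reached 5 nuclear RPM and each was at least 3 times the mean of Untreat-Bil and at least 3 times that of DDC-Hep. The rule rests on these measured values, so levels in these 4 groups are given as a description, with no test. The regions are called injury regions below.

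The study held 15 libraries in 5 groups of 3. DDC-Rep were hepatocytes that the labels call reprogrammed, DDC-Bil were biliary cells and DDC-Hep were hepatocytes, all sorted from livers of mice that received DDC (diethoxycarbonyl-dihydrocollidine, a feed additive that injures the bile ducts). Untreat-Bil were biliary cells and Untreat-Hep hepatocytes from mice without DDC. Cells went into the assay straight from the sort, with no culture step. The sources used here do not give the strain, age or number of mice, the length of DDC exposure, the sort markers, or what distinguished reprogrammed from other hepatocytes. Whether the 3 libraries of a group stem from separate animals is not labelled, so any p-value below covers the spread among libraries, and that spread may be technical.

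Injury of the bile ducts sets off a ductular reaction, in which biliary cells multiply and hepatocytes can take on biliary features. Open regions away from gene starts are often enhancers, short stretches of DNA that bind transcription factors and act on genes at a distance. AP-1, a family of paired Fos, Jun and Atf proteins that stress and growth signals switch on, binds a short palindrome. NF-kB is the transcription factor family that drives many chemokine and cytokine genes, and TEAD proteins carry the signal of YAP and TAZ, the effectors of Hippo signalling.

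Sequence was at hand for windows of 300 bases around gene starts, 250 bases before to 50 after (RefSeq, GRCm38.p6, which is mm10). Of these, 22 windows of 18 protein-coding genes lay inside 18 injury regions. The AP-1 letters TGANTCA, on either strand, stood in 7 of the 22 windows (31.8%), against 5.0% of 12249 windows inside any region and 7.0% of all 21238 windows. Each site is shown in capitals with up to 30 bases on either side, up to the gene start, because this was the motif with the widest gap between injury windows and the rest.

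Tnfrsf9, chr4:150927954-150927998, + strand: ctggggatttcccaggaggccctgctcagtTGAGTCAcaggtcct
Hrh1, chr6:114458276-114458342, + strand: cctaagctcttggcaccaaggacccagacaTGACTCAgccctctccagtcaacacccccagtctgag
Fcer2a, chr8:3690887-3690953, − strand: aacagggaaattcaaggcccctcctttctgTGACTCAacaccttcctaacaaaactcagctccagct
Ccdc33, chr9:58102298-58102351, − strand: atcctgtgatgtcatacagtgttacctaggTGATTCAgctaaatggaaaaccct
Ctla2b, chr13:60897554-60897620, − strand: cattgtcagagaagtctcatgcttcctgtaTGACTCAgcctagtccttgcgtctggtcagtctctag
Slc9a3r2, chr17:24644994-24645060, − strand: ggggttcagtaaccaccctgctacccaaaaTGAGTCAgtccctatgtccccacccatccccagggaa

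These 6 genes encode, among others, the T-cell co-stimulator receptor 4-1BB (Tnfrsf9), the histamine receptor H1 (Hrh1), the low-affinity IgE receptor CD23 (Fcer2a) and a scaffold protein of epithelial membranes (Slc9a3r2). Ccdc33 has overlapping windows for 2 starts, which hold the same site. Counted by region, 6 of 18 injury regions with a window held the AP-1 letters (33.3%), against 567 of 9849 regions of any kind with a window (5.76%). The injury windows also held fewer CpG pairs, with a median of 4 against 22 in windows inside any region and 13 in all windows. Among windows with at most 10 CpG pairs, a subset chosen after the counts were seen, the AP-1 letters stood in 7 of 20 injury windows (35%), 245 of 2053 windows inside any region (11.9%) and 10.9% of all 9617 such windows.

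For NF-kB the letters GGGANTT, on either strand, stood in 5 of the 22 injury windows (22.7%), 16.9% of windows inside any region and 16.6% of all windows. Sites before 2 gene starts are shown because both regions are among those described below, and the H2-M2 stretch holds the same letters at another place.

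Tnip1, chr11:54962961-54963027, − strand: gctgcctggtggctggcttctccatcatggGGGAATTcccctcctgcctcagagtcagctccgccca
H2-M2, chr17:37483697-37483763, − strand: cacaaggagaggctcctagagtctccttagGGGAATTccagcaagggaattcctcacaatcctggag

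The TEAD letters GGAATG stood in 22.7% of the injury windows, 11.7% of windows inside any region and 13.6% of all windows. Letters for factors of epithelium, biliary cells and hepatocytes were each found in 1 injury window (4.5%): ACCNGTT for GRHL (6.7% of windows inside any region, 7.8% of all), TTAATNA for HNF1 (5.2% and 9.3%) and CAAAGTC for HNF4A (3.7% and 4.1%). TGTGGTT for RUNX was in none of the 22 (3.0% and 4.7%). With 22 windows these shares are coarse, a match is a description of letters and not of binding, and the regions away from gene starts could not be searched.

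Nuclear reads per library were 4756891 to 9829886 in DDC-Rep, 5151190 to 10395918 in DDC-Bil, 1191409 to 2342643 in DDC-Hep, 2439831 to 4389653 in Untreat-Bil and 201705 to 605309 in Untreat-Hep. One read was therefore worth 1.65 to 4.96 nuclear RPM in an Untreat-Hep library. Summed over 19 biliary marker genes, accessibility was 2243 to 2782 nuclear RPM in DDC-Rep, 3356 to 3692 in DDC-Bil, 1429 to 1512 in DDC-Hep, 2952 to 3099 in Untreat-Bil and 1474 to 2057 in Untreat-Hep. Over 18 hepatocyte genes, of which Serpina1a had no region, it was 971 to 2043 in DDC-Rep, 610.2 to 1237 in DDC-Bil, 5247 to 7564 in DDC-Hep, 911 to 2083 in Untreat-Bil and 7136 to 10562 in Untreat-Hep. DDC-Rep thus lay between the hepatocyte and biliary groups on the biliary markers and within the range of Untreat-Bil on the hepatocyte markers.

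Reads in the injury regions made up 2.04%, 1.58% and 1.87% of nuclear reads in the DDC-Rep libraries and 2.51%, 1.73% and 2.40% in the DDC-Bil libraries. The shares were 0.387%, 0.242% and 0.232% in DDC-Hep, 0.369%, 0.352% and 0.286% in Untreat-Bil and 0.322%, 0.230% and 0.361% in Untreat-Hep. DDC-Rep and DDC-Bil stood apart from the other 3 groups with no overlap, and DDC-Rep overlapped DDC-Bil. The rule itself asked for the gap from DDC-Hep and Untreat-Bil. Untreat-Hep, the 1 group that took no part in the choice, lay within the range spanned by DDC-Hep and Untreat-Bil except for library 2, which was just below it. In such sorted bulk samples, fewer cells with an open region and less opening per cell cannot be told apart.

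**Figure D1:**
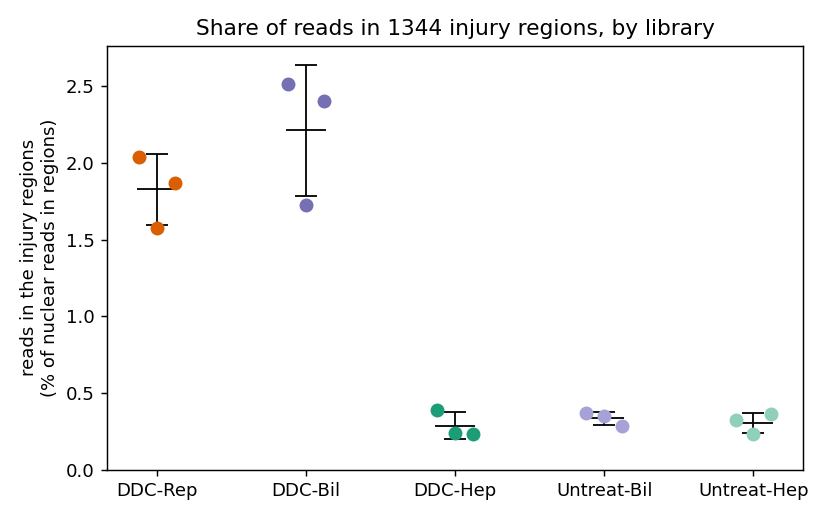
Share of nuclear reads that fell in the 1344 injury regions (y axis, %), for each library of the 5 groups (x axis); long lines are means and whiskers are SD (n = 3). DDC-Rep (1.83 ± 0.233%) and DDC-Bil (2.21 ± 0.428%) lie above DDC-Hep (0.287 ± 0.0865%), Untreat-Bil (0.336 ± 0.0438%) and Untreat-Hep (0.304 ± 0.0676%).

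The median injury region stood at 10.5 nuclear RPM in DDC-Rep, 12.9 in DDC-Bil, 1.48 in DDC-Hep, 1.77 in Untreat-Bil and 1.10 in Untreat-Hep. Means spanned 5.01 to 134 nuclear RPM in DDC-Rep and 5.01 to 127 in DDC-Bil. All 6 DDC-Rep and DDC-Bil libraries lay above all 6 DDC-Hep and Untreat-Bil libraries in 1259 injury regions (93.7%), beside 5.54% of all nuclear regions. The rule used these contrasts, so nothing is read from that count. The smallest of the 4 ratios was below 4 in 543 regions (40.4%), from 4 to 6 in 479 (35.6%), from 6 to 10 in 251 (18.7%) and 10 or more in 71 (5.28%), with a median of 4.38.

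The set is part of a wider change. DDC-Bil was at 5 nuclear RPM or more and at least 3 times Untreat-Bil in 5106 regions. In 2563 of them (50.2%) DDC-Rep met the same terms, and in 1344 (26.3%) both were also at least 3 times DDC-Hep. A further 1219 (23.9%) met every other term but not both of those against DDC-Hep. Outside the 5106, DDC-Rep met the terms against Untreat-Bil in 1378 regions where DDC-Bil did not.

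Libraries that were left out of the choice show the same measure in values that the choice did not use. Whether they stem from other animals is not labelled. They may therefore not be independent of the libraries used, and the shares are a description. With replicate 1 of the 4 groups set aside, 1299 regions met the rule, and in the libraries set aside DDC-Rep and DDC-Bil were each higher than Untreat-Bil and DDC-Hep in 97.4% of them and each at least 3 times higher in 55.3%. With replicate 2 set aside the rule took 1733 regions, of which 88.9% kept all 4 directions and 40.7% all 4 ratios. With replicate 3 set aside it took 1145, with 96.7% and 66.4%. Among all regions at 5 nuclear RPM or more in both DDC-Rep and DDC-Bil, the held-out libraries had all 4 directions in 28.7% to 32.7% and all 4 ratios in 3.53% to 5.44%.

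St3gal1 and Lce1m mark the set. St3gal1 encodes a sialyltransferase that caps O-linked sugar chains on cell surface proteins. A region in its gene body (chr15:67138353-67139618, mm10) had 45, 29.4 and 32.8 nuclear RPM in DDC-Rep and 78.4, 38.4 and 67.8 in DDC-Bil, against 8.54, 2.87 and 7.55 in DDC-Hep, 1.51, 0 and 3.19 in Untreat-Bil and 19.8, 0 and 17.0 in Untreat-Hep. DDC-Rep and DDC-Bil overlapped, and the Untreat-Hep values rest on 4, 0 and 4 reads. Another region, outside the gene body (chr15:67058392-67059333), had means of 12 ± 0.744 nuclear RPM in DDC-Rep, 15.2 ± 4.05 in DDC-Bil, 1.21 ± 1.05 in DDC-Hep, 1.74 ± 1.15 in Untreat-Bil and no read in Untreat-Hep (SD, n = 3 each). Over all regions tied to St3gal1 the sum was 341 to 474 nuclear RPM in DDC-Rep, 388 to 471 in DDC-Bil, 423 to 485 in DDC-Hep, 254 to 322 in Untreat-Bil and 421 to 579 in Untreat-Hep. Summed over the gene, DDC-Rep and DDC-Bil thus overlapped DDC-Hep.

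Lce1m belongs to the late cornified envelope genes, which encode structural proteins of the outer skin. Its injury region, near the gene (chr3:93025218-93027511), had 39.8, 34.1 and 46.0 nuclear RPM in DDC-Rep and 55.9, 32.6 and 49.6 in DDC-Bil. The same region had 3.41, 0.958 and 0 in DDC-Hep, 6.05, 3.28 and 3.19 in Untreat-Bil and 0, 11.6 and 8.52 in Untreat-Hep. Every DDC-Rep and DDC-Bil library was above all 9 others, and no other region was tied to Lce1m.

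The tallest injury region covered the gene of Ccl2, the chemokine that draws monocytes (chr11:82031909-82040920). It had 147, 107 and 148 nuclear RPM in DDC-Rep, 155, 93.4 and 132 in DDC-Bil, 46.1, 31.6 and 30.2 in DDC-Hep, 13.6, 14.8 and 15.5 in Untreat-Bil and 19.8, 0 and 8.52 in Untreat-Hep. DDC-Hep lay between the 2 high groups and Untreat-Bil, with no overlap on either side. Next came regions near Dnajb12, a chaperone partner in the endoplasmic reticulum membrane (94.0 ± 12.2 nuclear RPM in DDC-Rep, 115 ± 9.57 in DDC-Bil, 21.3 ± 11.9 in DDC-Hep, 29.8 ± 6.73 in Untreat-Bil), and in Cd44, the hyaluronan receptor.

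Others of the 10 tallest lay near Adgrg5, an adhesion G protein-coupled receptor, in Mthfd1l, a mitochondrial enzyme of folate metabolism, near Rpl3, a ribosomal protein gene, at S100a3, a calcium-binding protein, and at Tnip1, a partner of A20 in restraining NF-kB. Regions near Mlph, a linker of vesicles to myosin, and Pttg1, which encodes securin, completed the 10. The Tnip1 region holds the gene start shown above (chr11:54958160-54963651). It had 71.9, 69.9 and 59.9 nuclear RPM in DDC-Rep, 86.5, 59.8 and 85.5 in DDC-Bil, 21.3, 16.3 and 10.1 in DDC-Hep, 18.5, 27.9 and 18.7 in Untreat-Bil and 0, 9.91 and 8.52 in Untreat-Hep. In Untreat-Bil the means of these 10 regions ran from 12.8 to 29.8 nuclear RPM. The rule no longer took Mthfd1l, Dnajb12, Tnip1 and Adgrg5 without replicate 1, Cd44 and S100a3 without replicate 3, or Pttg1 without either, whereas Ccl2, Rpl3 and Mlph stayed.

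The 10 regions with the widest margin on the rule (smallest of the 4 ratios, each after adding 1) were nearly closed in DDC-Hep and Untreat-Bil, and each stayed in the set without any replicate. They lay in or near Ubr2, a ubiquitin ligase, Pole, the catalytic subunit of DNA polymerase epsilon, Hes1, a Notch target repressor, Wwox, an oxidoreductase at a fragile site, Wwtr1, which encodes TAZ, Unc5b, a netrin receptor, Capn13, a calpain protease, H2-M2, a non-classical MHC gene, Egr1, an immediate-early transcription factor, and Ccdc33. In Ubr2 (chr17:46932792-46934128) the values were 28.1, 23.2 and 37.0 nuclear RPM in DDC-Rep and 52.0, 27.8 and 43.1 in DDC-Bil, against 3.84, 0.958 and 0 in DDC-Hep, 2.27, 1.64 and 1.82 in Untreat-Bil and 0, 4.96 and 8.52 in Untreat-Hep. Wwtr1 (chr3:57501310-57502304) had 14.9 ± 4.14 nuclear RPM in DDC-Rep, 14.8 ± 5.64 in DDC-Bil, 0.604 ± 0.525 in DDC-Hep, 0.853 ± 0.642 in Untreat-Bil and 0.551 ± 0.954 in Untreat-Hep. Near Egr1 the means were 17.2 ± 6.96 in DDC-Rep, 24.0 ± 7.69 in DDC-Bil, 0.888 ± 0.856 in DDC-Hep, 1.24 ± 0.117 in Untreat-Bil and 3.31 ± 5.72 in Untreat-Hep.

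**Figure D2:**
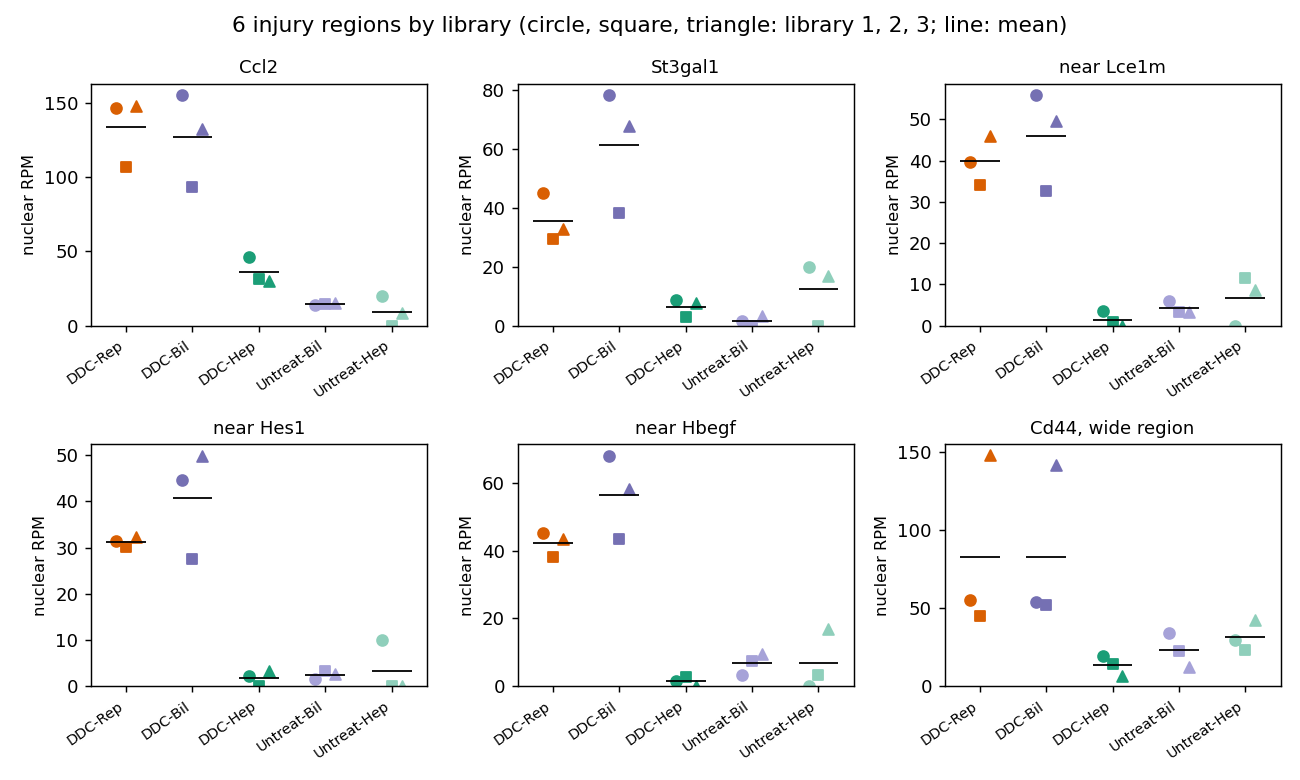
Nuclear RPM (y axes, linear and separate for each panel) of 6 injury regions in the 15 libraries by group; circle, square and triangle are libraries 1, 2 and 3 and the line is the mean. In each panel every DDC-Rep and DDC-Bil library is above the other 3 groups, and in Cd44 library 3 of DDC-Rep (148) and of DDC-Bil (142) stands far above the others.

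Gene lists put these regions beside pathways. Of all regions tied to a protein-coding gene, that is inside it or within 50 kb, 1.33% were injury regions, and 5.55% of genes with a region had at least 1. Each count below is a description beside these shares, and a tie by position does not show which gene a region acts on. The lists were drawn up with earlier results of these data known. A list share above that of all tied regions is therefore no independent evidence.

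Inflammation and chemokine genes had 10 injury regions of 126 (7.94%), in 7 of 27 genes with a region: Ccl2, Csf1, Csf2, Cx3cl1, Il1f6, Il23a and Il34. Il23a encodes the p19 subunit of interleukin 23, and its region (chr10:128296795-128299011) had 30.3, 16.5 and 21.2 nuclear RPM in DDC-Rep, 46.3, 36.3 and 38.7 in DDC-Bil, 4.27, 6.22 and 3.36 in DDC-Hep, 3.78, 4.10 and 3.19 in Untreat-Bil and 9.92, 6.61 and 17.0 in Untreat-Hep. The DDC-Rep libraries were all below the DDC-Bil libraries there. Csf2, the gene of the myeloid growth factor GM-CSF, had 3 injury regions among 11. The tallest (chr11:54214232-54217949) had 41.9, 36.6 and 31.1 in DDC-Rep and 39.2, 34.0 and 39.4 in DDC-Bil, against 11.5, 3.83 and 3.36 in DDC-Hep, 4.16, 4.92 and 2.28 in Untreat-Bil and 0, 3.30 and 8.52 in Untreat-Hep.

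AP-1 genes had 4 injury regions of 68 (5.88%), at Atf3, Batf, Fosb and Jdp2, of which Atf3 and Fosb are early response genes and Batf and Jdp2 encode partners that lack a classical activation domain. Near Fosb (chr7:19316294-19317451) the level was 24.9, 25 and 27.3 nuclear RPM in DDC-Rep and 25.3, 20.8 and 33.8 in DDC-Bil, against 5.12, 1.92 and 6.71 in DDC-Hep, 8.31, 5.74 and 1.82 in Untreat-Bil and 0, 0 and 8.52 in Untreat-Hep. The region near Atf3 had means of 23.3 ± 4.49 in DDC-Rep, 32.0 ± 10 in DDC-Bil, 5.53 ± 3.36 in DDC-Hep and 6.61 ± 1.34 in Untreat-Bil. In Batf the means were 7.02 ± 0.668 in DDC-Rep, 7.60 ± 1.54 in DDC-Bil, 0.285 ± 0.493 in DDC-Hep and 0.677 ± 0.194 in Untreat-Bil. The Fos and Jun genes other than Fosb held no injury region.

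EGF ligands and receptors had 3 injury regions of 140 (2.14%). Near Hbegf, a ligand of the EGF receptor (chr18:36492231-36494442), the level was 45, 38.0 and 43.3 nuclear RPM in DDC-Rep and 67.9, 43.5 and 58.0 in DDC-Bil, against 1.71, 2.87 and 0 in DDC-Hep, 3.40, 7.38 and 9.57 in Untreat-Bil and 0, 3.30 and 17.0 in Untreat-Hep. Near Egfr, the receptor gene, the region rested on library 3: it had 4.38, 3.56 and 12.2 in DDC-Rep and 5.77, 2.33 and 13.1 in DDC-Bil, against 3.41, 0.958 and 1.68 in DDC-Hep and 1.51, 0.820 and 0 in Untreat-Bil, and it left the set without replicate 3. The region near Fgfr2, a receptor of fibroblast growth factors, had 13.0 ± 0.486 in DDC-Rep, 11.1 ± 1.57 in DDC-Bil, 1.45 ± 0.425 in DDC-Hep and 2.13 ± 1.48 in Untreat-Bil. YAP target genes had 5 of 273 (1.83%), close to the share of all tied regions. They lay at Igfbp3, Tead1, Asap1 and Ccn2, with Igfbp3, a binding protein of insulin-like growth factors, tallest at 24.3 ± 8.15 in DDC-Rep, 21.9 ± 2.17 in DDC-Bil, 4.33 ± 2.08 in DDC-Hep and 1.56 ± 1.97 in Untreat-Bil.

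TGF-beta, integrin and matrix genes had 16 injury regions of 360 (4.44%), in 8 of 31 genes, among them Itgav, Itgb6, Ltbp1, Ltbp2, Tnc and Zeb1. Itgav and Itgb6 encode the 2 chains of an integrin that releases latent TGF-beta, and the Ltbp genes encode TGF-beta binding proteins or relatives in the matrix. Near Itgav (chr2:83699407-83703683) the level was 39.1, 45 and 37.4 nuclear RPM in DDC-Rep and 61.0, 46.8 and 63.9 in DDC-Bil, against 12.8, 8.14 and 5.04 in DDC-Hep, 9.45, 9.84 and 4.78 in Untreat-Bil and 19.8, 14.9 and 0 in Untreat-Hep. Itgb6 had 4 injury regions among 20, which summed to 61.8, 43.0 and 75.9 in DDC-Rep and 109, 58.0 and 109.7 in DDC-Bil, against 8.11, 5.75 and 3.36 in DDC-Hep, 9.45, 7.38 and 7.29 in Untreat-Bil and 19.8, 14.9 and 8.52 in Untreat-Hep. The 3 injury regions of Ltbp2, among 10, summed to 101, 96.4 and 80.5 in DDC-Rep and 111, 87.4 and 86.0 in DDC-Bil, against 23.9, 15.3 and 19.3 in DDC-Hep, 16.2, 17.2 and 11.4 in Untreat-Bil and 19.8, 6.61 and 34.1 in Untreat-Hep.

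Skin and mucosal barrier genes had 5 injury regions of 76 (6.58%), at Lce1m, Pglyrp3, Pglyrp4, Tff1 and Tff3. Pglyrp3 and Pglyrp4 encode antibacterial peptidoglycan recognition proteins, and the trefoil factors Tff1 and Tff3 are secreted with mucus. Beside Pglyrp3 (chr3:92032679-92034551) the level was 9.65, 4.48 and 9.67 nuclear RPM in DDC-Rep and 25.8, 19.6 and 28.2 in DDC-Bil, against 1.71, 1.92 and 1.68 in DDC-Hep and 0.378, 1.64 and 1.37 in Untreat-Bil. In Tff1 (chr17:31162201-31163274) the level was 9.10, 7.12 and 8.41 in DDC-Rep and 20.1, 14.2 and 15.2 in DDC-Bil, against 2.56, 1.92 and 1.68 in DDC-Hep and 3.02, 0 and 0 in Untreat-Bil. In both regions DDC-Rep was below DDC-Bil in every library and above the other 2 groups. Glycosyltransferase genes had 4 injury regions of 218 (1.83%). Besides St3gal1 they included St3gal3, another sialyltransferase, with 36.3 ± 5.89 nuclear RPM in DDC-Rep, 50.7 ± 6.65 in DDC-Bil, 8.29 ± 2.83 in DDC-Hep and 5.59 ± 1.0 in Untreat-Bil, and St6gal1.

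Notch genes had 4 injury regions of 120 (3.33%), near Hes1, Heyl and Rbpj, which encode target repressors and the DNA-binding partner of the Notch receptor. A region 22 kb from Hes1 (chr16:30089987-30091054) had 31.5, 30.1 and 32.4 nuclear RPM in DDC-Rep and 44.6, 27.6 and 49.8 in DDC-Bil, against 2.13, 0 and 3.36 in DDC-Hep, 1.51, 3.28 and 2.73 in Untreat-Bil and 9.92, 0 and 0 in Untreat-Hep. Near Rbpj the means were 28.6 ± 5.05 in DDC-Rep, 28.8 ± 3.94 in DDC-Bil, 6.54 ± 1.86 in DDC-Hep and 3.40 ± 1.79 in Untreat-Bil. Of 73 regions tied to cell cycle genes none was an injury region.

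Among marker genes of liver cell types, injury regions were 4 of 271 biliary regions (1.48%; Cftr, Cldn4, Epcam and Tspan8) and none of 119 hepatocyte, 46 stellate and fibroblast, 12 macrophage, 9 neutrophil or 6 lymphocyte regions. Endothelial genes had 2 of 49 (Pecam1 and Vwf) and mesothelial genes 1 of 21 (Wt1). The rule asked DDC-Hep to be low, so regions open in those hepatocytes could hardly enter, and nothing is read from the hepatocyte count. Summed over the 8 endothelial genes the level was 198 to 275 nuclear RPM in DDC-Rep, 177 to 239.7 in DDC-Bil, 224 to 245 in DDC-Hep, 121 to 156 in Untreat-Bil and 154 to 215 in Untreat-Hep. Over 6 mesothelial genes it was 141 to 164 in DDC-Rep, 157 to 197 in DDC-Bil, 158 in each of the DDC-Hep libraries, 84.8 to 108 in Untreat-Bil and 172 to 253 in Untreat-Hep. The 9 macrophage genes, of which Adgre1, Clec4f, Cd5l, Vsig4 and Lyz2 had no region, summed to 111 to 137 in DDC-Rep, 111 to 136 in DDC-Bil, 119 to 170.4 in DDC-Hep, 97.7 to 112 in Untreat-Bil and 72.7 to 89.4 in Untreat-Hep. Neutrophil genes (Ly6g, Mpo and Cxcr2 without a region) summed to 19.7 to 30.7 in DDC-Rep, 15.9 to 23.8 in DDC-Bil, 17.6 to 22.6 in DDC-Hep, 8.20 to 11.3 in Untreat-Bil and 19.8 to 38.3 in Untreat-Hep. Over 8 stellate and fibroblast genes the sum was 253 to 278 in DDC-Rep, 222 to 251 in DDC-Bil, 135 to 181 in DDC-Hep, 212 to 248 in Untreat-Bil and 119 to 169 in Untreat-Hep. Lymphocyte genes, most without a region, stayed at 47.9 or less in every library. DDC-Rep and DDC-Bil were both above Untreat-Bil in every library on the endothelial, mesothelial and neutrophil sums. On the stellate sum DDC-Rep was above both DDC-Hep and Untreat-Bil.

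Single marker genes of several other cell types followed the pattern of the rule in their summed level, with all 6 DDC-Rep and DDC-Bil libraries above all 6 DDC-Hep and Untreat-Bil libraries. They were 2 of 8 endothelial genes (Pecam1 and Vwf), 2 of 6 mesothelial genes (Msln and Wt1), 1 of 8 stellate and fibroblast genes (Col1a1), 1 of 5 neutrophil genes with a region (Csf3r) and none of 4 macrophage genes, beside 5.52% of all genes with a region. Of the biliary genes 3 of 19 did so (Cftr, Cldn4 and Sox9) and of the hepatocyte genes none of 17. Hepatocyte markers were high in DDC-Hep, so nothing is read from the latter count. Msln, which encodes mesothelin, had 52.5, 27.5 and 45.2 nuclear RPM in DDC-Rep and 94.7, 56.1 and 85.2 in DDC-Bil, against 19.6, 16.3 and 10.1 in DDC-Hep and 13.2, 9.84 and 4.78 in Untreat-Bil. Col1a1, the main collagen gene of fibroblasts, had 113, 107 and 88.5 in DDC-Rep and 81.2, 91.6 and 83.6 in DDC-Bil, against 56.8, 27.3 and 26 in DDC-Hep and 50.6, 41.0 and 43.1 in Untreat-Bil. Other genes of the same lists were lower in both high groups than in Untreat-Bil or in DDC-Hep. Acta2 had 4.27 to 8.11 nuclear RPM in DDC-Rep and 9.43 to 12.2 in DDC-Bil, against 22.5 to 28.2 in Untreat-Bil. Lrrn4 had 21.3 to 29.2 in DDC-Rep and 13.8 to 17.5 in DDC-Bil, against 93.9 to 98.6 in DDC-Hep. Stab2 had 46.1 to 76.9 in DDC-Rep and 25.8 to 31.3 in DDC-Bil, against 94.0 to 117 in DDC-Hep. The part of other cell types in the injury regions was not tested.

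**Figure D3:**
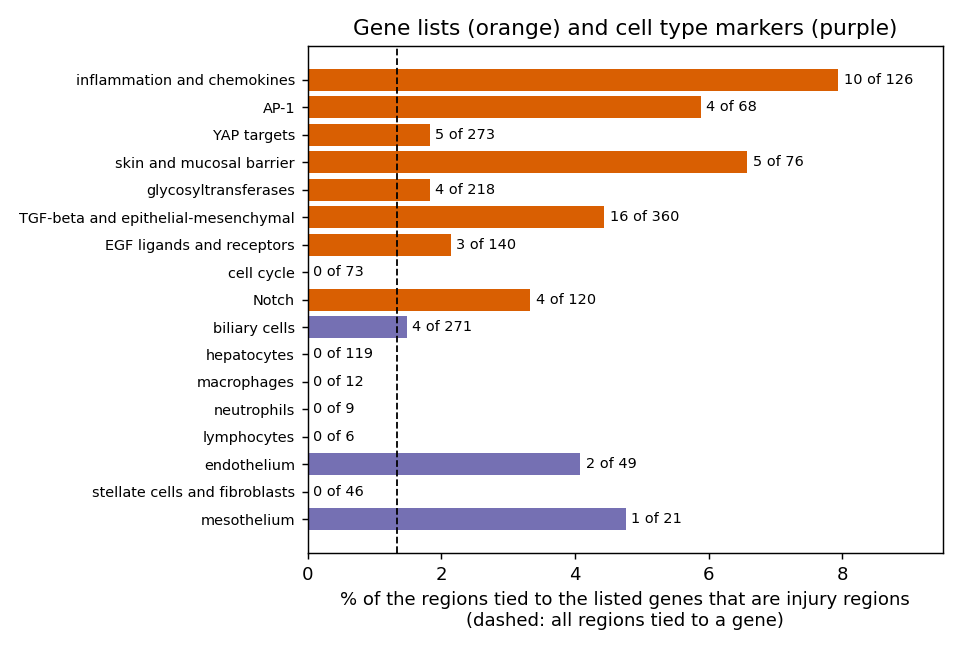
Share of the regions tied to the genes of each list that are injury regions (x axis, %), for 9 pathway lists (orange) and 8 cell type marker lists (purple); numbers give the counts. The dashed line marks all regions tied to a gene (1.33%), and inflammation and chemokine genes reach 7.94%. The lists were drawn up with earlier results of these data known.

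Several genes held more than 1 injury region. The 1071 regions that could be tied to a gene fell on 922 genes, of which 798 had 1, 106 had 2, 13 had 3 and 4 had 4. Zbtb7c, a zinc finger transcription factor, had 6 among its 41 regions, which summed to 112, 97.8 and 106 nuclear RPM in DDC-Rep and 148, 105 and 139 in DDC-Bil, against 21.3, 12.9 and 3.36 in DDC-Hep, 17.8, 18.9 and 23.7 in Untreat-Bil and 0, 6.61 and 25.5 in Untreat-Hep. Myom2, known as a gene of the muscle sarcomere, had 4 among 7. Its sums were 52.9, 26.1 and 25.4 in DDC-Rep and 93.6, 59.2 and 62.0 in DDC-Bil, against 2.56, 4.31 and 4.20 in DDC-Hep, 7.56, 6.97 and 7.52 in Untreat-Bil and 0, 11.6 and 34.1 in Untreat-Hep.

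Sspn, which encodes sarcospan, a membrane protein of the dystrophin complex, had 4 among 16 regions, and Arhgef3, an activator of the small GTPase RhoA, had 4 among 39. Cd44, Col18a1, a basement membrane collagen, and Prag1, a pseudokinase, had 3 each, as had Ltbp2 and Csf2. For Arhgef3 the sums were 67.8, 57.4 and 43.3 nuclear RPM in DDC-Rep and 76.3, 51.6 and 50.7 in DDC-Bil, against 13.7, 8.62 and 6.71 in DDC-Hep and 15.9, 9.02 and 7.06 in Untreat-Bil. Col18a1 had 87.7, 66.1 and 64.7 in DDC-Rep and 75.7, 65.4 and 83.3 in DDC-Bil, against 20.9, 9.58 and 12.6 in DDC-Hep and 14.4, 13.9 and 13.4 in Untreat-Bil. DDC-Rep and DDC-Bil overlapped at Col18a1 and at Itgb6, while at Myom2 every DDC-Rep library was below every DDC-Bil library. These sums were not tested.

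Injury regions seldom lay at gene starts. Starts were listed for 17492 of 21887 protein-coding genes, so shares at starts are too low in every set, and regions at other starts, such as that of Ccl2, count as gene bodies or nearby. A listed start was within 1 kb of 21 of them (1.6%), against 31.6% of the 29954 regions at 5 nuclear RPM or more in both DDC-Rep and DDC-Bil and 12.1% of all regions. Either end of any protein-coding gene, or a listed start, was within 1 kb of 66 injury regions (4.91%), 42.7% of the regions at level and 18.8% of all, which sets an upper limit for 1 start a gene at its annotated ends. Gene bodies held 42.5%, against 39.5% and 48.7%. A further 35.6% lay within 50 kb of a gene (20% and 25.5%) and 20.3% farther away (8.9% and 13.7%). They were 982 bp wide at the median (422 to 28642), between 706 bp for all regions and 1645 bp for those at level in both groups, and 8 reached 5 kb. Another injury region lay within 50 kb of 294 of them (21.9%), while 9.8% of the other regions had an injury region that near.

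**Figure D4:**
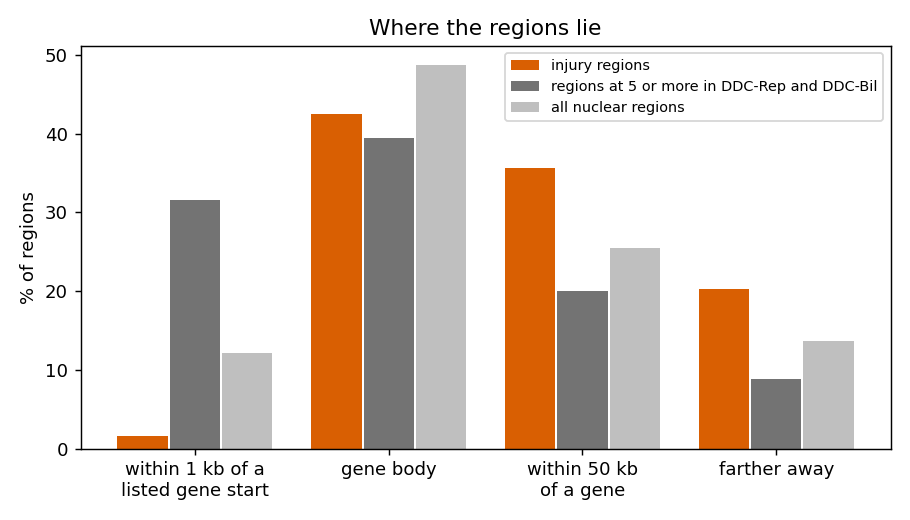
Share of regions (y axis, %) by place for injury regions, regions at 5 nuclear RPM or more in both DDC-Rep and DDC-Bil, and all nuclear regions. Listed gene starts, an incomplete list, take 1.6% of injury regions, 31.6% of the regions at level and 12.1% of all.

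Among the few injury regions at listed gene starts were those of Hrh1 and Tmem40, named after their values were seen. Hrh1 (chr6:114457259-114459030) had 21.7, 8.04 and 8.20 nuclear RPM in DDC-Rep and 34.7, 21.9 and 34.5 in DDC-Bil, against 3.41, 0 and 0 in DDC-Hep and 3.40, 2.46 and 1.82 in Untreat-Bil. Untreat-Hep had 9.92, 3.30 and 8.52 there, on few reads, and overlapped DDC-Rep. Tmem40 (chr6:115758758-115760026) had 10.4, 4.48 and 13.5 in DDC-Rep and 38.6, 19.8 and 55.0 in DDC-Bil, against 0.427, 0.958 and 1.68 in DDC-Hep, 5.29, 2.46 and 0.911 in Untreat-Bil and no read in Untreat-Hep. In both, every DDC-Rep library was below every DDC-Bil library. At Slc9a3r2 (chr17:24644002-24646068), whose AP-1 letters are shown above, the levels overlapped, with 27.9, 20 and 23.1 in DDC-Rep and 26.5, 18.8 and 30.2 in DDC-Bil, against 0, 0.958 and 1.68 in DDC-Hep, 6.05, 2.46 and 3.64 in Untreat-Bil and 9.92, 0 and 8.52 in Untreat-Hep.

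Reprogrammed cells were set against DDC biliary cells, a contrast that the rule did not use, though it asked both to be high. In limma on log2(nuclear RPM + 1) none of 79075 regions passed a Benjamini-Hochberg adjusted p of 0.05 (0% called), so none of the 1344 injury regions did. At an unadjusted p under 0.05 there were 4309 regions, 26 of them injury regions. The edgeR quasi-likelihood test on the recovered reads called 2207 regions (2.79%), of which 25 were injury regions (1.86%). In DDC-Rep 1 of these was higher, against 1.04% of all regions, and 24 were lower, against 1.75%. With only these 2 groups in the limma fit 5711 of 75806 were called (7.53%), with 6 injury regions higher in DDC-Rep, against 2.21% of all regions, and 111 lower, against 5.33% (8.71% in either direction). Without the Untreat-Hep libraries 4 injury regions were called, all 4 lower in DDC-Rep (1.21% of all regions were called and 0.897% were lower). On the deposited scale none was, while 0.618% of all regions were (0.0638% higher and 0.554% lower). The number of calls thus differed between these fits.

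The means leaned to DDC-Bil. The median log2 difference, DDC-Rep minus DDC-Bil, was -0.23 over the injury regions and 0.03 over all regions tested. The DDC-Rep mean was the lower one in 972 injury regions (72.3%), against 45.1% of the regions at level in both groups. DDC-Rep was at least 2 times higher in 8 injury regions and DDC-Bil in 92. Leaving out any 1 library of these groups kept the median between -0.38 and -0.13.

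Of 5 regions chosen after their values were seen, Pglyrp3 differed by -1.57 ± 0.69 on the log2 scale (estimate ± SE, limma adjusted p = 0.843), and 3 of 16 alternatives called it. Il23a differed by -0.84 ± 0.40 (adjusted p = 0.932), Tff1 by -0.92 ± 0.71 and the St3gal1 gene body region by -0.73 ± 0.88 (limma adjusted p = 1 for both), each called by 1 of 16. Ank1, which encodes an ankyrin, went the other way. Its region (chr8:23037845-23039127) had 55.4, 43.1 and 42.0 nuclear RPM in DDC-Rep and 35.2, 22.3 and 41.6 in DDC-Bil, a difference of 0.52 ± 0.43 (limma adjusted p = 1), and no alternative called it.

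**Figure D5:**
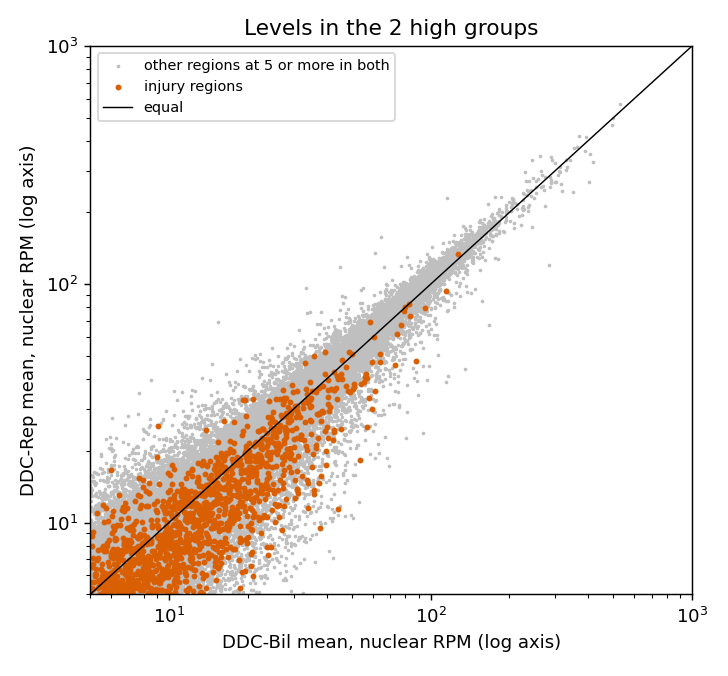
Mean nuclear RPM of DDC-Rep (y axis, log) against DDC-Bil (x axis, log) for regions at 5 or more in both groups, with the injury regions in orange and the line of equal levels. More injury regions lie below the line (72.3%) than among all the regions shown (45.1%).

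Hepatocytes were low in these regions with and without DDC. DDC-Hep had to be low by the rule, so the comparison with Untreat-Hep mainly describes how low the untreated cells were. Of the injury regions 510 had no read in any Untreat-Hep library (37.9%), against 27.1% of all regions. In limma 142 of 1344 were called (10.6%), against 12.1% of 79075 regions, 129 of them higher in DDC-Hep (9.94% of all regions) and 13 lower (2.20%). The median log2 difference was 0.44 over the injury regions and 0.32 over all regions tested. Their order turned under several settings: TMM factors gave 0.59 and 0.71, the deposited scale, mitochondrial reads included, 0.56 and 1.01, the fit with only the hepatocyte groups 0.23 and 0.28, and leaving out DDC-Hep replicate 1 0.25 and 0.29. On the deposited scale 47.8% of all regions were called, 47.6% higher and 0.269% lower in DDC-Hep. With only the hepatocyte groups in the fit no region of 68629 was called, with 9519 at an unadjusted p under 0.05 (132 of 898 injury regions tested), while edgeR called 5482 regions (6.93%), 47 of them injury regions (3.50%), of which 41 were higher in DDC-Hep (6.49% of all regions) and 6 lower (0.445%). Calls on so few reads are uncertain, and a fitted difference against a group with no read depends on the number added before the log.

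The 5 largest differences upward were such cases. Reads in DDC-Hep and none in Untreat-Hep were found near Dad1, a subunit of oligosaccharyltransferase (65 reads), in Col16a1, a collagen (75), in Ank1 (55), near Mlph (50) and in Stx8, a SNARE protein (47). A floor for Untreat-Hep was set at 3 reads over its 1041881 pooled reads, 2.88 nuclear RPM. Pooled DDC-Hep levels were divided by this floor without their own error, so the ratios are not lower limits. They were 4.63 at Col16a1, 4.02 at Dad1, 3.40 at Ank1, 3.09 at Mlph and 2.90 at Stx8. The limma adjusted p-values were 0.000224, 0.00124, 0.000224, 8.53e-05 and 0.000199 in that order, and 14 of 15 alternatives called each, all but the fit with only the hepatocyte groups.

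Lower in DDC-Hep than in Untreat-Hep were a region in Fhit, a hydrolase gene at a fragile site, one in the tetraspanin gene Cd82, one in Cemip, which acts in hyaluronan turnover, one near Ccl17, a chemokine of T cells, and one with no gene within 50 kb (chr9:61695238-61695971). Fhit (chr14:10749592-10751585) had 26.5, 16.7 and 19.8 nuclear RPM in DDC-Rep, 24.7, 18.8 and 19.6 in DDC-Bil, 5.98, 1.92 and 6.71 in DDC-Hep, 7.56, 5.74 and 2.28 in Untreat-Bil and 19.8, 19.8 and 59.6 in Untreat-Hep, from 4, 12 and 14 reads. DDC-Hep was lower than Untreat-Hep in all 3 libraries. The rule favours this direction, since it asked DDC-Hep to be low, so the 13 lower calls are given as a description and no p is printed for them. The other 4 rested on few reads: 2 in DDC-Hep and 8 in Untreat-Hep for Cd82, 5 in DDC-Hep and 7 in Untreat-Hep for Cemip, 6 in DDC-Hep and 9 in Untreat-Hep for Ccl17, and 5 in DDC-Hep and 8 in Untreat-Hep for the region without a gene. Fhit also had the highest Untreat-Hep mean of all injury regions, followed by Cd44, Syce1l, Dusp10 and Gjb5. Fhit and Cd44 had reads in every Untreat-Hep library, whereas Dusp10 had 0, 9.91 and 38.3 nuclear RPM there, from 0, 6 and 9 reads. These are the top of a ranking on few reads, and whether such regions were open in untreated hepatocytes was not tested.

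Single libraries decided some members. In 5 injury regions library 3 was at least 2 times both other libraries in DDC-Rep and in DDC-Bil, in 2 this held for library 1 and in none for library 2. The widest injury region, 28642 bp across Cd44 (chr2:102868548-102897189), had 55.4, 44.8 and 148 nuclear RPM in DDC-Rep, 54.2, 52.2 and 142 in DDC-Bil, 19.6, 14.4 and 6.71 in DDC-Hep, 34.4, 23.0 and 12.3 in Untreat-Bil and 29.7, 23.1 and 42.6 in Untreat-Hep. It left the set without replicate 3. Near Lsm8, which encodes a spliceosome subunit and stood just inside the threshold, the values were 6.36, 2.54 and 18.9 in DDC-Rep and 15.7, 12 and 53.3 in DDC-Bil, against 2.56, 3.35 and 3.36 in DDC-Hep.

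At the edge of the rule, Tm4sf20 and Dad1 stood just inside with Lsm8. Near Tm4sf20 the DDC-Rep mean was 5.01 nuclear RPM and the DDC-Bil mean 5.46, against 0.729 in DDC-Hep and 0.788 in Untreat-Bil. The region near Dad1 had 30.5 in DDC-Rep and 41.1 in DDC-Bil, against 10.2 in DDC-Hep and 0.959 in Untreat-Bil. Just outside, regions near Gml2 (6.42 in DDC-Rep, 7.02 in DDC-Bil, 1.84 in DDC-Hep and 2.14 in Untreat-Bil), in Fry (17.1, 24.4, 1.13 and 5.69 in that order) and in Fam180a (11.7, 13.5, 3.89 and 2.66) missed a ratio of 3 by less than 1 part in 100.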

How the data were processed

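The deposited table gives, for 93217 regions, values that the authors call TPM. They are RPM: low values of each deposited column were whole multiples of 1 read (tolerance 0.02), with no division by length, and in library 1 of DDC-Rep that step lies near a power of 10, so the pattern is weaker evidence there. The tools named per the submitters' processing notes are bedtools, MACS2, Bowtie2 and SAMtools, with mm10 as the build. The sources used here give no versions and do not say how duplicates were handled or regions merged. Here 2 mitochondrial regions were dropped and each column was rescaled to 1000000, since mitochondrial reads took 4.69% to 84.18% of a library. The members and gene lists were chosen with earlier results of these data known.

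Regions were tied to protein-coding genes of the RefSeq table for GRCm38.p6, inside the gene or within 50 kb. Comparisons used limma-trend 3.58.1 (R 4.3.3) on log2(nuclear RPM + 1), with all 15 libraries in 1 fit, a minimum mean of 1 per region and p-values adjusted by Benjamini-Hochberg over all regions kept (threshold 0.05). edgeR 4.0.16 ran on recovered reads as an alternative. Tables were made with pandas 2.3.3 and numpy 2.4.6 in Python 3.11.15, and figures with matplotlib 3.10.9. Replicates of a group differed by more than counting noise, with chi-square per degree of freedom of 2.34 to 8.2. The floor covers counting error in Untreat-Hep only. Regions named were those at St3gal1 and Lce1m, the 10 tallest, the 10 with the widest margin, up to 5 called per direction and comparison, the 10 genes with most injury regions, the 3 tallest per list, the 3 on each side of the threshold and the 5 highest in Untreat-Hep. The deposited scaling, TMM factors, other pseudocounts and filters, other fits and other thresholds of the rule were tried.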

Additional observations from a re-analysis of the deposited data

How the results depend on the processing

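The rule took 2688 regions at a fold of 2, 801 at a fold of 4 and 649 at a level minimum of 10, and 1145 to 1733 without single replicates or libraries. Between DDC-Rep and DDC-Bil limma called 436 regions as deposited (0.618%), 1 with a pseudocount of 3 and 1 with a filter at mean 5. Without the Untreat-Hep libraries it called 960 (1.21%), with 4 injury regions (0.298% of them). edgeR called 2207 (2.79%), with 25 injury regions (1.86%), and the fit with only the 2 groups 5711 (7.53%), with 117 (8.71%). Leaving out any 1 of the 6 DDC-Rep and DDC-Bil libraries gave 0 calls, and no other single library was left out of this comparison.

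Between DDC-Hep and Untreat-Hep the 9598 calls became 33748 as deposited (47.8% of regions tested), with 290 injury regions (21.6% of them). TMM factors gave 19580 (24.4%), with 218 injury regions (16.2%). A filter at mean 5 gave 4976 (13.8%), with 129 of 808 injury regions tested (16%). edgeR gave 5482 (6.93%), with 47 injury regions (3.5%), and the fit with only these groups gave 0 (0). Without single replicates the calls ranged from 5559 to 19053. The lowest count, without DDC-Hep replicate 1, was 7.03% of regions, with 82 injury regions (6.1%). The highest, without Untreat-Hep replicate 2, was 24.1% of regions, with 273 injury regions (20.3%). A pseudocount of 3 gave 74 injury regions (5.51%), against 10.7% of all regions. In the main fit, which called 12.1% of all regions, 401 of the 2688 at a fold of 2 were called. Of the 801 at a fold of 4 it called 62. The cause was not tested.

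Whether the replicate numbers pair the libraries is not labelled, and the main fits used no pairing. Correlations of same-numbered deviations from the group means were 0.206, 0.0789 and 0.209 between DDC-Rep and DDC-Bil. Between the hepatocyte groups they were -0.00676, 0.0353 and 0.0303. Each of the 3 DDC-Rep libraries correlated best with its own number, and so did each of the 3 DDC-Bil libraries, a hint from the data and not the design. With the replicate block the counts were 0 regions between DDC-Rep and DDC-Bil and 8936 between the hepatocyte groups (11.3%). Of the injury regions 0 and 129 (9.6%) were called. No named region's difference changed sign, but the order of the hepatocyte medians of injury and all regions turned, as given above. Untreat-Hep depth limits every statement on those cells.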
